A study of Homo sapiens with 4 samples.

Results

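The replication-dependent histone genes are the compact gene families that encode the linker histone H1 and the core histones H2A, H2B, H3 and H4. Members were taken by name alone: RefSeq transcripts in the deposited gene tables whose current symbol is H1-1 to H1-6, or H2AC, H2BC, H3C or H4C followed by a number, with pseudogenes left out. Of 69 such protein-coding symbols, 67 had a value of their own, among 25027 symbols or unmatched identifiers in the tables. H2AC19 and H3C14 had none, since their loci are listed under the transcripts of H2AC18 and H3C15. The values of H2AC18 and H3C15 thus each hold both loci. The 67 comprised 6 H1, 16 H2A, 18 H2B, 12 H3 and 15 H4 genes. Values of transcripts that share a symbol were summed.

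The cells were RPE1, a human line derived from retinal pigment epithelium and immortalised with telomerase. They received 10 nM of an siRNA against SAF-A (short for scaffold attachment factor A and encoded by HNRNPU, a nuclear protein that binds RNA and chromatin) or 10 nM of a negative control siRNA, by the same lipid transfection. RNA was taken 24 h or 48 h later. Each of the 4 combinations is represented by 1 library with no replicate, and 1 siRNA sequence was used against SAF-A. No test between groups could be made, and every difference below describes these libraries. The intervals given cover counting error only, since 1 library per group shows no spread between libraries. The reads carried no molecular identifiers.

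Levels are given in FPKM, the fragments mapped to a transcript divided by its length and by the depth of the library, as the authors computed them. Where 4 values follow each other, they are the control siRNA library of 24 h, the SAF-A siRNA library of 24 h, the control library of 48 h and the SAF-A library of 48 h, in that order. The implied depths were 28083822, 30701282, 28586051 and 1216740 mapped reads, so the last library was by far the shallowest. HNRNPU itself was at 91.2, 10.4, 84.6 and 9.24 FPKM, which put the SAF-A libraries at 11.4% and 10.9% of their controls. Of the 6 marker genes of retinal pigment epithelium, MITF alone averaged 1 FPKM or more, and RPE65 was listed at 0 in every library; the 6 summed to 9.69, 6.23, 9.65 and 5.20 FPKM. The markers CD3E of T cells and HBB of red blood cells were also listed at 0 in every library, PTPRC of white blood cells did not pass 0.347 FPKM, and SYT1, from the neuronal list, was at 5.66, 4.86, 5.29 and 4.49 FPKM. The epithelial keratin KRT18 was at 142, 124, 229 and 23.3 FPKM, while vimentin (VIM) was at 2145, 1845, 1586 and 3312 FPKM. The part of these differences in the results on histone genes was not tested.

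Cells need new histones when they copy their DNA, and these genes are transcribed and their mRNAs kept stable mainly during S phase. Their mRNAs are the textbook exception to polyadenylation. They end just after a short stem-loop that is bound by the stem-loop binding protein SLBP, and cleavage there uses the U7 small nuclear ribonucleoprotein. Replication-independent histone variants, such as H3.3 and H2A.Z, are made from other genes with ordinary polyadenylated mRNAs through the whole cell cycle. Here ribosomal RNA was removed from total RNA and no selection for poly(A) is named in the labels, so both kinds of mRNA could enter the libraries. In bulk RNA, fewer cells in S phase and less histone mRNA per cell cannot be told apart.

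The stem-loop was searched in the transcript sequences (GRCh37, hg19) because it is the feature that sets these mRNAs apart from all others. It was found in 66 of the 67 genes. The sequences below are those of genes on which the results turn, with 5 bases on either side; capitals mark the 6-base left arm, the 4-base loop and the 6-base right arm. They are written as DNA on the coding strand, and all lie at the end of the 3′ part of the mRNA that follows the coding region. The H3C15 entry shows the commonest form. The copy printed under this name lies on the minus strand, where RefSeq on GRCh38 places H3C14. The plus-strand copy, H3C15 on GRCh38, has the same printed bases. H4C2 shows the form of the H4 class, H2BC11 a loop variant, and H2AC11 and H2AC15 the arm variants. H3C6 is the gene whose level went against the others at 48 h.
H3C15 (chr1:149812259-149812284, minus strand): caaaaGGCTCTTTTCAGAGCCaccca
H4C2 (chr6:26027124-26027149, minus strand): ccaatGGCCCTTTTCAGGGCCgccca
H2BC11 (chr6:27100095-27100120, minus strand): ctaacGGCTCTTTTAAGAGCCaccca
H2AC11 (chr6:27101289-27101314, plus strand): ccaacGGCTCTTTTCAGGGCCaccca
H2AC15 (chr6:27805658-27805683, minus strand): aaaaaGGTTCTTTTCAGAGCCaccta
H3C6 (chr6:26225819-26225844, plus strand): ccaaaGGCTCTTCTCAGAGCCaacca

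The arms divided by class. All 15 H4 genes had GGCCCT and AGGGCC, whereas all 6 H1 genes, all 12 H3 genes, 17 of 18 H2B genes and 14 of 16 H2A genes had GGCTCT and AGAGCC. The other 2 H2A genes were H2AC11, with the right arm of the H4 form, and H2AC15, with a changed left arm. The loop was TTTC in 50 genes, TTTA in 8, TTTT in 5, TCTC in 2 and TCTA in 1. H3C6 was the single H3 gene with the TCTC loop. In 67 of the 71 RefSeq transcripts of these genes the transcript ended within 100 nt of the stem-loop.

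The other transcripts had a different end. H2BC21 (chromosome 1, 149856010 to 149858232, minus strand) ran on for 1728 nt past its stem-loop. The single transcript of H2BC12 (chromosome 6, 27106072 to 27114637, minus strand) had 2 exons and no stem-loop: its first exon was 450 nt long, and a stem-loop lay at position 478 of the unspliced gene, inside the intron. H2BC5 and H2BC18 each had, beside the stem-loop-ended form, a spliced form without a stem-loop.

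The promoters were compared because many of these genes sit in divergent H2A and H2B pairs that share the stretch between them. Promoters are those of RefSeq (GRCh38.p14), from 250 bases before to 50 bases after the start, with 68 entries for 64 symbols. The searched motifs, on both strands, were CCAAT, the TATA box letters TATAAA, and ATTTGCAT, an octamer that is read by POU-domain factors such as the product of POU2F1. The promoter of H2AC14 (chr6:27814728-27815027, minus strand) is shown because H2AC14 and H2BC14 are divergent neighbours with very unequal levels and starts 304 nt apart, so that most of the bases between them are printed, and that of H4C2 (chr6:26027234-26027533, minus strand) as the gene with the highest level. Capitals mark every match to the 3 motifs on either strand.
H2AC14 promoter: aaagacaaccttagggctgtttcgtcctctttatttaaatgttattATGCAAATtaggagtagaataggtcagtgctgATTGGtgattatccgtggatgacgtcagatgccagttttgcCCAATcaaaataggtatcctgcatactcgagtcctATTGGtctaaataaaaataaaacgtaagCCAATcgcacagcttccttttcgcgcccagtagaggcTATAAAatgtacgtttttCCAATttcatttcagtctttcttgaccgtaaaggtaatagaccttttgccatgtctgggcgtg
H4C2 promoter: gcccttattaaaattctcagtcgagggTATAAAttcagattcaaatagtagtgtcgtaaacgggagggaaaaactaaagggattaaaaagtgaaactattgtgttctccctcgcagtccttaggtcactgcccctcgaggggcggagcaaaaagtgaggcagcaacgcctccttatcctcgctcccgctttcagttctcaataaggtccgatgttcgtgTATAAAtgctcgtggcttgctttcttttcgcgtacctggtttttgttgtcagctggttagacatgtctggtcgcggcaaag

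CCAAT was present in every H1 (6), H2A (16), H2B (20) and H3 (13) promoter entry, but in 3 of 13 H4 promoters (23.1%). Among all 35116 promoters of the same length it was present in 34.6%. The octamer was present in 68.8% of H2A promoters (11 of 16) and 15 of 20 H2B promoters, in 1 of 13 H3 promoter entries and in no H1 or H4 promoter, against 1.77% of all promoters. That H3 entry, listed under H3C4, has the same place and bases as the promoter of H2AC7. The other H3C4 entry has no octamer. Both H3C4 entries count below among genes that averaged under 1 FPKM. TATAAA was present in 66.2% of the histone promoters and in 11.5% of all promoters. Because paired H2A and H2B promoters overlap, their matches are often the same bases and are not independent. The motifs did not divide high from low genes. In promoters of genes that averaged 5 FPKM or more, CCAAT was present in 82.4%, TATAAA in 64.7% and the octamer in 41.2%, and in those of genes that averaged under 1 FPKM, in 92.3%, 61.5% and 30.8%. A match is a description of the letters and not a binding site.

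Summed over the 67 genes, FPKM was 27367, 31243, 23919 and 5472 in the 4 libraries. The first 3 lay close together and the SAF-A library of 48 h was far lower. As a share of the FPKM of all genes of at least 300 nt, the histone genes made up 7.26%, 8.02%, 6.25% and 1.22%. Among genes of at least 300 nt, the 100 highest of each library included 22, 23, 19 and 0 histone genes.

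The classes kept nearly the same proportions in every library. In control siRNA at 24 h, H4 genes held 37.2% of the summed FPKM, H2A 24.7%, H3 19.2%, H2B 14.3% and H1 4.53%. In SAF-A siRNA at 48 h these shares were 35.8%, 24.7%, 18.9%, 15.9% and 4.64%. The order of H4 over H2A depends on the correction for length, since H4 mRNAs are the shortest (median 370 nt, against 484 nt for H2A). By estimated reads H2A had 28.0% and H4 25.1% in control siRNA at 24 h.

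**Figure D1:**
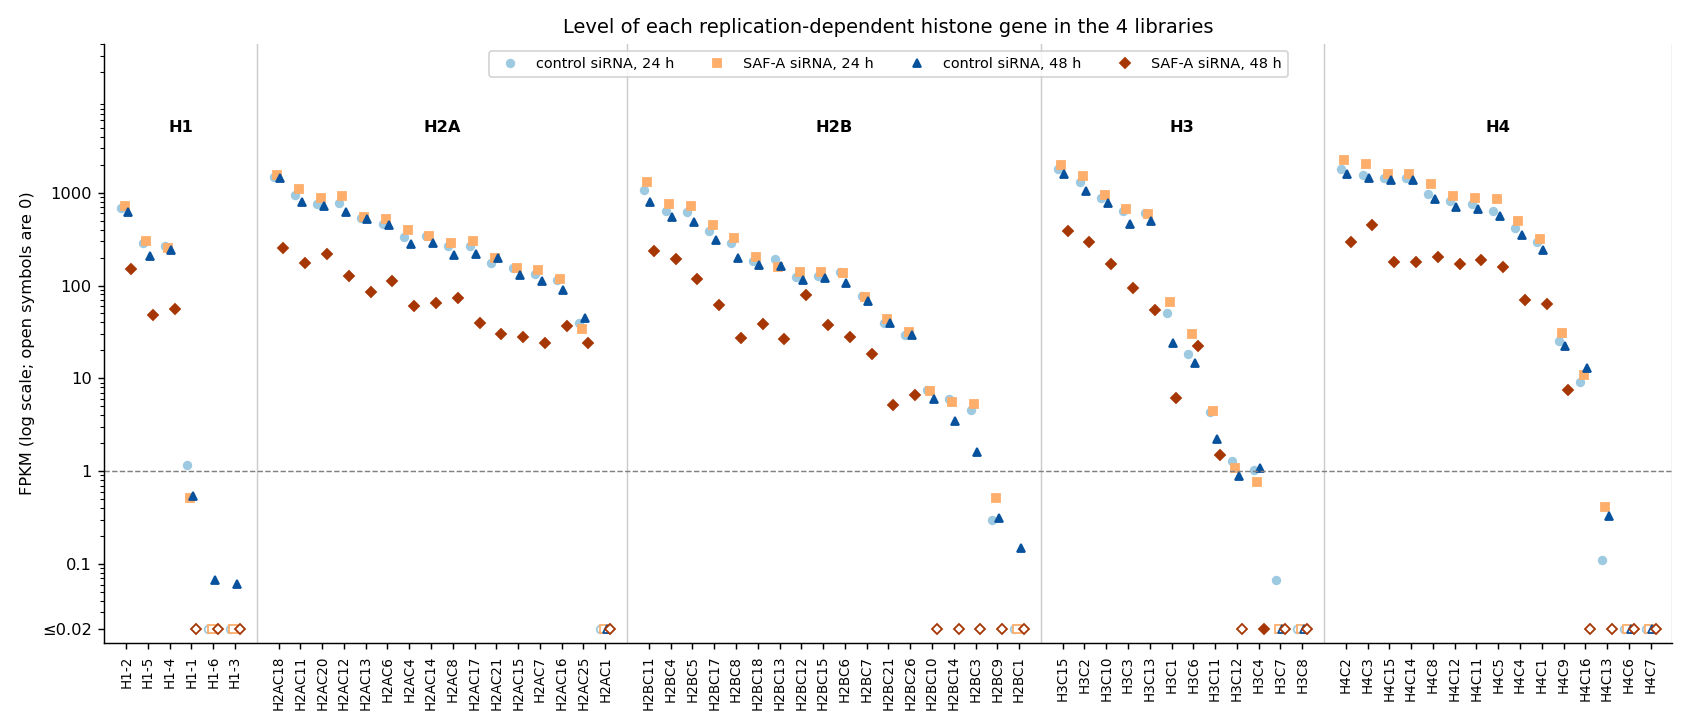
FPKM of each of the 67 genes (log scale, genes ordered by mean level within each class) in the 4 libraries; symbols at the bottom are values of 0.02 FPKM or less, open ones exactly 0, and the dashed line marks 1 FPKM. In most genes the SAF-A 48 h symbol (diamond) lies well below the other symbols, which stay close together.

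A few genes carried most of the message of each class. The gene with the highest mean level was H4C2, at 1805, 2238, 1578 and 292 FPKM. H4C3 followed among the H4 genes, at 1560, 2034, 1422 and 450 FPKM. Almost every gene of this class encodes the same H4 protein, and in both of these the SAF-A library was the highest of the 4 at 24 h and the lowest at 48 h.

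H4C14 and H4C15, copies on chromosome 1 that no 50-base read can tell apart, were each at 1442, 1574, 1366 to 1367 and 180 FPKM. Their values are not independent and count as a single measurement. Of the 67 genes, 15 had fewer than 80% of their 50-base windows to themselves, and the levels of such genes are uncertain one by one. Windows were compared among the 67 genes only, and not with pseudogenes or the rest of the genome. How such reads were weighted is not given in the sources used here, so sums over them carry that uncertainty too.

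In the H3 class, the H3C15 entry was highest, at 1788, 1977, 1609 and 389 FPKM. It is the sum of 2 loci, which RefSeq on GRCh38 names H3C14 and H3C15. Each locus alone was at 894 FPKM in control siRNA at 24 h, below H3C2. H3C2 was at 1289, 1529, 1052 and 297 FPKM, H3C10 at 874, 940, 774 and 171 FPKM, and H3C3 at 631, 660, 462 and 95.1 FPKM. The library order was the same in all 4, with SAF-A 24 h on top and SAF-A 48 h at the bottom. They encode the canonical H3 proteins that are placed on newly copied DNA.

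In the H2A class, the H2AC18 entry was highest, at 1458, 1565, 1451 and 253 FPKM. It again is the sum of 2 loci, named H2AC18 and H2AC19 on GRCh38. Each locus alone was at 729 FPKM in control siRNA at 24 h, below H2AC11. H2AC11 was at 944, 1099, 799 and 175 FPKM, H2AC20 at 754, 883, 725 and 220 FPKM, and H2AC12 at 774, 918, 617 and 126 FPKM. In the H2B class, H2BC11 was at 1061, 1307, 801 and 235 FPKM, H2BC4 at 634, 755, 543 and 193 FPKM, H2BC5 at 618, 715, 486 and 116 FPKM, and H2BC17 at 391, 450, 308 and 62.0 FPKM. H2A and H2B join as dimers that flank the H3 and H4 core of the nucleosome, and again the SAF-A 48 h value was the lowest of each gene.

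In the H1 class 3 genes made up nearly all of the signal. H1-2 was at 689, 713, 613 and 151 FPKM, H1-5 at 284, 299, 209 and 47.7 FPKM, and H1-4 at 265, 252, 243 and 55.2 FPKM. H1-1, the next gene, was at 1.17, 0.508 and 0.546 FPKM in the first 3 libraries and listed at 0 in the last. H1-3 and H1-6 (the testis-specific linker histone) did not pass 0.0671 FPKM in any library.

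The span of levels within a class was wide. Of the 67 genes, 41 had a mean over the 4 libraries of at least 100 FPKM, 10 between 5 and 100, 3 between 1 and 5, and 13 under 1, of which 4 (H2AC1, H3C8, H4C6 and H4C7) were listed at 0 in every library. The order of the 54 genes that reached a mean of 1 FPKM was nearly the same everywhere: Spearman's rho across these genes was 0.998 between the 24 h libraries and 0.963 between the 48 h libraries. These coefficients are across genes, which are not independent replicates.

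Most of the silent genes stood side by side, whatever their class, while H1-1, H1-6 and H3C4 stood among expressed genes. Along chromosome 6, 6 neighbouring genes, H1-3, H4C6, H4C7, H3C7, H2BC9 and H3C8, occupied 37.2 kb (26234440 to 26271612, hg19) and none passed 0.517 FPKM in any library. The gene before them, H3C6, had a mean of 21.4 FPKM and the genes after them, H2BC10 and H4C8, means of 5.16 and 812 FPKM. H2AC1 and H2BC1, a divergent pair known from testis at 25726291 to 25727573, did not pass 0.150 FPKM. H3C11, H4C13 and H3C12 formed another low stretch, with means of 3.13, 0.211 and 0.816 FPKM between H1-5 and H2AC17, whose means were 210 and 206 FPKM.

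**Figure D2:**
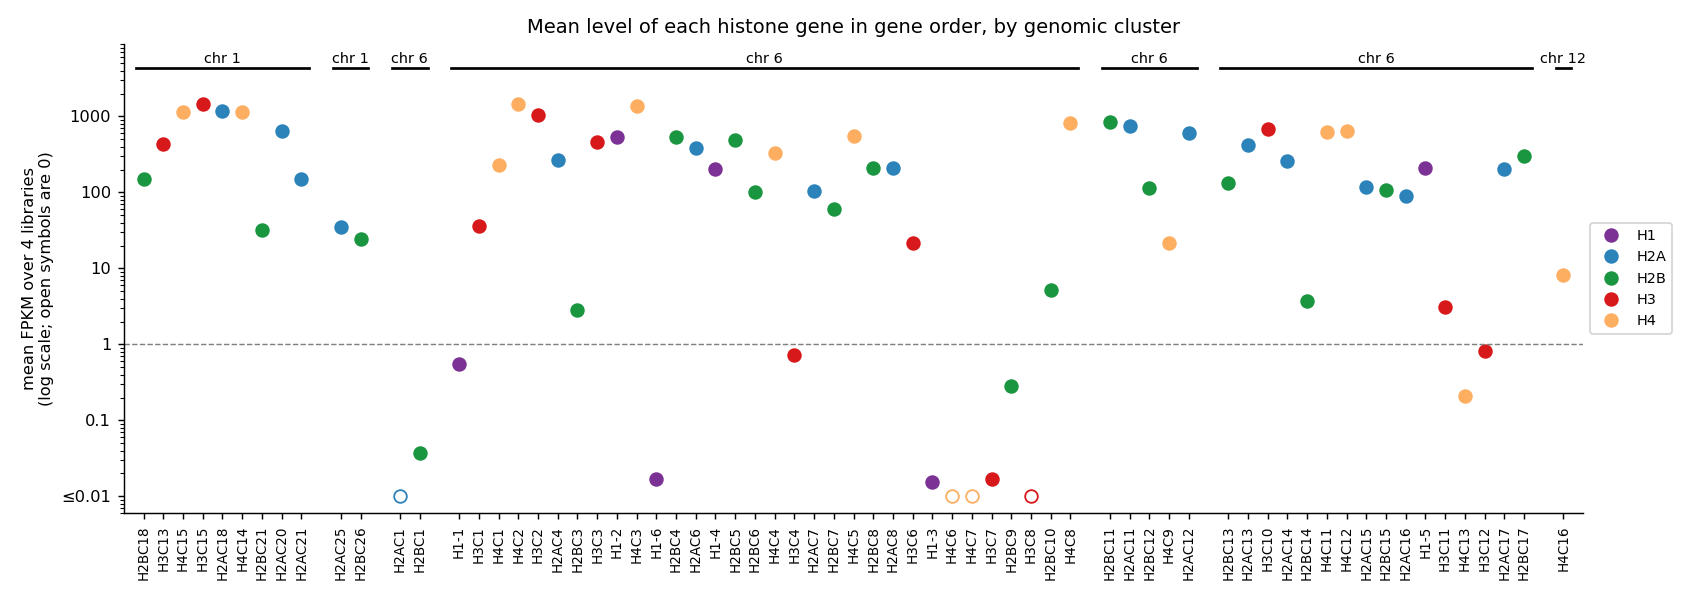
Mean FPKM over the 4 libraries (log scale) of each gene in gene order within 7 genomic clusters, coloured by class; genes more than 200 kb apart were put in separate clusters, open symbols are genes listed at 0 everywhere, and the dashed line marks 1 FPKM. Most silent genes stand side by side, as in the run from H1-3 to H3C8, while H1-1, H1-6 and H3C4 stand among expressed genes.

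The largest cluster, on chromosome 6 from 26017260 to 26285727, held 32 genes and 42.4% of the summed FPKM in control siRNA at 24 h. The cluster on chromosome 1 from 149783434 to 149859466 held 9 genes and 28.8%. The chromosome 6 cluster from 27775257 to 27861669 held 16 genes and 17.8%, and that from 27100095 to 27115341 held 5 genes and 10.7%. H2AC25 and H2BC26 on chromosome 1 at 228645065 to 228646259, and H4C16 on chromosome 12 at 14923654 to 14924065, gave 0.252% and 0.0331%.

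Divergent H2A and H2B neighbours did not always have similar levels. There were 12 such pairs with starts 224 to 347 nt apart, and in 11 both genes had a mean of at least 1 FPKM. In 7 of these the means were within 2-fold, for example 211 and 210 FPKM for H2AC8 and H2BC8, and 754 and 851 FPKM for H2AC11 and H2BC11. H2AC14 and H2BC14, whose shared stretch is printed above, had means of 260 and 3.77 FPKM, a ratio of 68.8, although 27.4% of the 50-base windows of H2AC14 are its own and its level is uncertain. H2AC20 and H2BC21 had means of 645 and 32.0 FPKM, although H2BC21 is scaled by a transcript that runs far past its stem-loop. Across the 11 pairs Spearman's rho of the levels was 0.38.

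At 24 h the question was whether histone mRNA differed between SAF-A and control siRNA. On the log2(FPKM + 1) scale, which understates changes of low genes, none of the 54 genes tested (mean of 1 FPKM or more) was 2-fold higher and none 2-fold lower, where 1.83% and 1.25% of all 11631 such genes were. Most differences were small and positive: 46 of the 54 lay above 0, against 4247 of all 11631 genes. Of the 46, 30 had deposited 95% intervals that did not overlap, a share that was not counted over all genes. The median difference of the 54 was 0.16, against -0.06 for all genes and 0.11 for the 380 other genes of similar length (300 to under 800 nt), a background chosen after the data were seen. Of these 380 genes, 260 lay above 0. On the TPM scale, where every library sums to the same total, the median of the 54 was -0.02 and 22 of the 54 lay above 0, so the sign at 24 h depended on the scaling.

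Among the classes, H4 was highest at 24 h. The summed FPKM of the H4 genes with SAF-A siRNA was 120% of control (95% counting interval 118% to 121%), and all 12 tested H4 genes lay above 0, although 9 of 12 did on the TPM scale, where the H4 sum was 105.2% of control. H2B stood at 115% (113% to 117%), H2A at 111% (110% to 112%), H3 at 110% (109% to 112%) and H1 at 102% (100% to 104%). On the TPM scale H1 was at 89.8%, H2A at 97.6% and H3 at 96.9%, below control, and H2B at 101%; H1 was also below control, at 98.7%, with the FPKM of genes of at least 300 nt as the total. The order of the classes, H4 first and H1 last, is the same on any such scale, since one factor per library multiplies all of them. H4 also has the shortest transcripts (median 370 nt) and H1 the longest (779 nt), and the part of length in this order was not tested.

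Single genes ranged from H2BC13, at 191 FPKM in the control and 157 FPKM in the SAF-A library (82.0% of control, 75.8% to 88.7%), to H3C6, at 18.5 and 30.0 FPKM (162%, 131% to 202%). H2BC13 lay below control and H3C6 above it by more than the counting error. Among the H4 genes the largest difference was that of H4C5, at 636 and 856 FPKM, a log2 difference of 0.43. H4C14 and H4C15 had the smallest but one in their class, 0.13 each. H3C13, in the same chromosome 1 cluster, was at 608 and 593 FPKM.

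**Figure D3:**
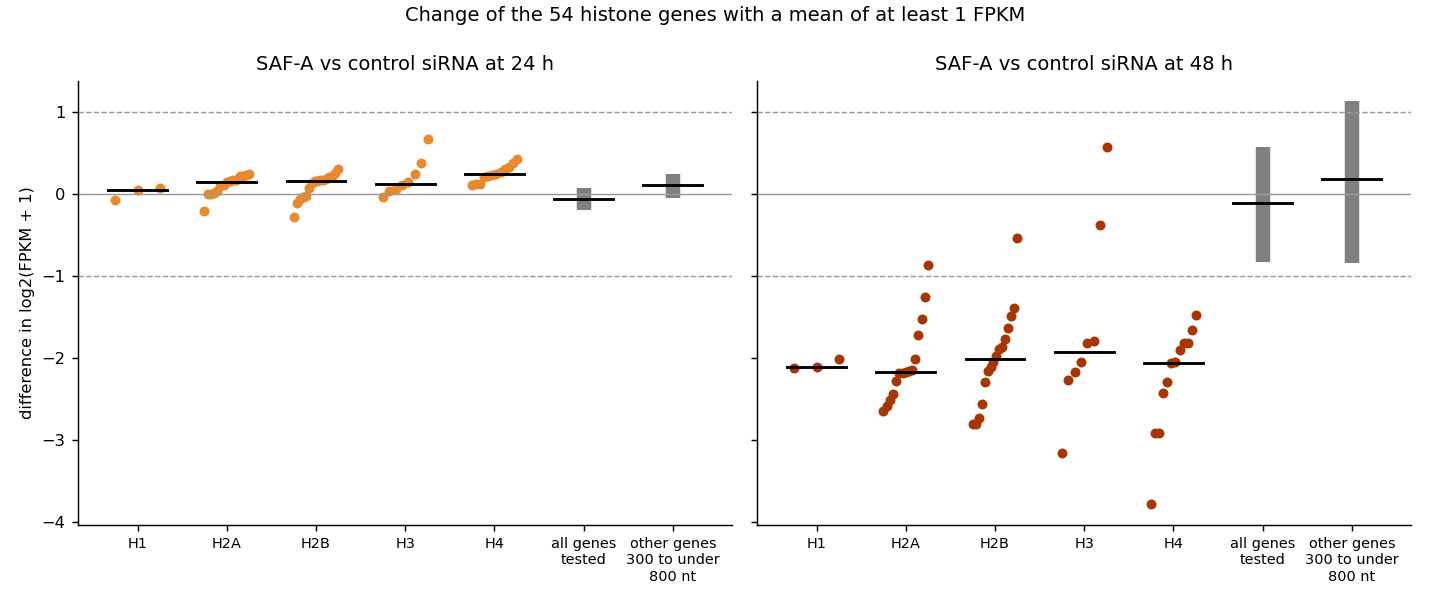
Difference in log2(FPKM + 1) between SAF-A and control siRNA at 24 h (left) and 48 h (right) for the 54 genes tested; points are genes, black lines medians, and grey bars the middle 50% of all genes tested and of other genes of 300 to under 800 nt. The points sit near 0 at 24 h, where the sign of their median (0.16) turns on the TPM scale (-0.02), and all but 4 sit below -1 at 48 h.

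At 48 h the same comparison gave a far larger difference. With SAF-A siRNA, 50 of the 54 genes were at least 2-fold lower than with control siRNA and none was at least 2-fold higher, whereas 20.1% of all genes tested were 2-fold lower and 14.2% 2-fold higher. The median log2 difference was -2.08, against -0.12 for all genes and 0.19 for the other genes of 300 to under 800 nt. Summed FPKM was 22.9% of control (21.8% to 24.1%). This library held 1728 estimated reads of all histone genes together, against 174951 in the 48 h control, so sums are better determined than single genes.

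Every class shared the difference. The summed FPKM at 48 h was 23.8% of control (20.5% to 27.7%) for H1, 22.0% (20.1% to 24.1%) for H2A, 27.6% (24.6% to 31.0%) for H2B, 23.4% (21.0% to 26%) for H3 and 21.4% (19.5% to 23.6%) for H4. The interval of H2B did not overlap those of H4 and H2A. These gaps rested on a few genes: without H2BC12 the H2B sum was 26.1% (23.0% to 29.5%), and without the indistinguishable H4C14 and H4C15 the H4 sum was 24.99% (22.4% to 27.9%). Without H2BC12 the H2B interval overlapped both others, and without H4C14 and H4C15 the H4 interval overlapped that of H2B.

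**Figure D4:**
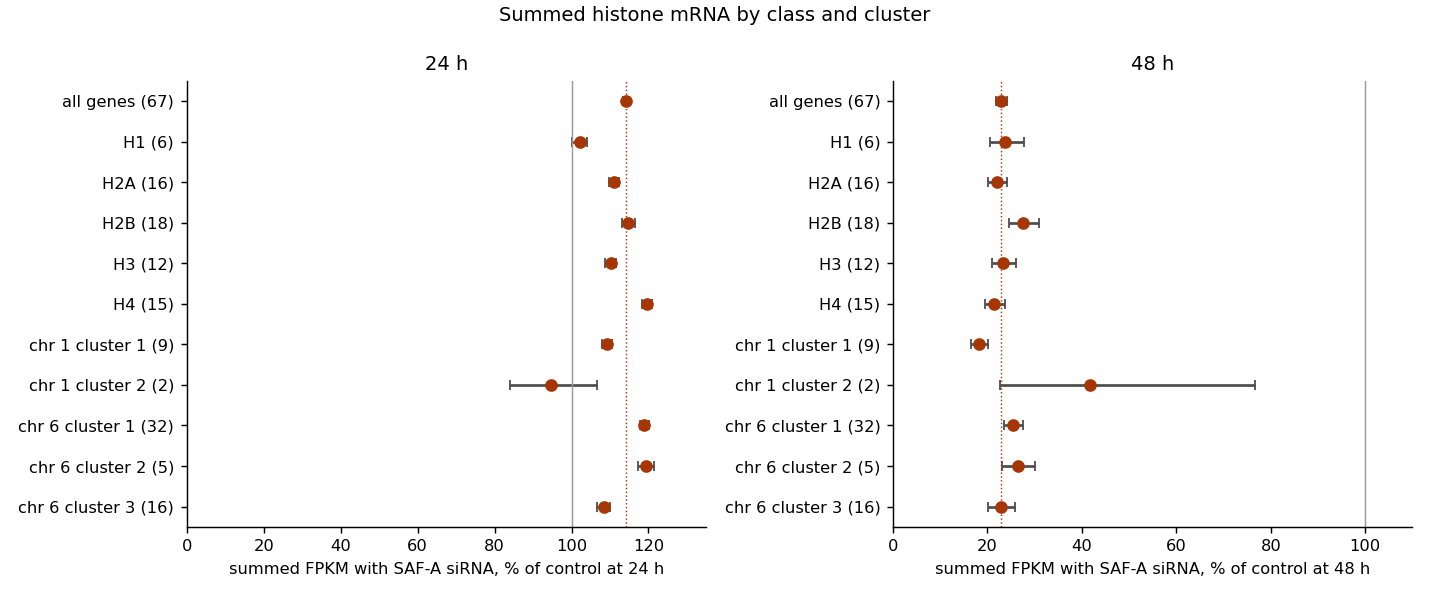
Summed FPKM with SAF-A siRNA as a percent of control siRNA at 24 h (left) and 48 h (right) for all genes, the 5 classes and 5 genomic clusters (number of genes in parentheses, clusters in chromosome order, those with fewer than 2 tested genes left out); bars are 95% counting intervals, the dotted line is the value of all genes and the grey line is 100%. At 48 h the classes lie between 21.4% and 27.6%; at 24 h they lie above 100%, which on the TPM scale holds for H2B and H4 only.

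Among the 41 genes that averaged 100 FPKM or more, 40 were 2-fold lower at 48 h, and the levels of the 41 ranged from 10.9% to 68.7% of control with a median of 22.7%. H3C13 was the lowest of these, at 494 FPKM in the control and 54.1 FPKM in the SAF-A library (10.9% of control, 6.50% to 17.9%), the latter from 16.7 estimated reads. H4C16 had the most negative log2 difference of all 54 genes, -3.79, but this rests on a SAF-A value listed at 0 where 3 reads would be 11.9 FPKM, against 12.8 FPKM in the control. H2BC3, H2BC10 and H2BC14 were also listed at 0 in the SAF-A library, and their control levels of 1.62, 6.0 and 3.47 FPKM lay below what 3 reads would give, so for them a difference was not detectable at this depth. That leaves 46 of the 50 lower genes with reads in both libraries.

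The main chromosome 1 cluster was lower at 48 h than the main chromosome 6 cluster. Its summed FPKM was 18.2% of control (16.5% to 20.0%), against 25.5% (23.6% to 27.5%) for the 32 genes of the main chromosome 6 cluster, 26.4% (23.2% to 30.1%) for the cluster of 5 genes and 22.8% (20.1% to 25.9%) for the cluster of 16. Most of the cluster is made of near-identical copies: 7 of its 9 genes have fewer than 80% of their windows to themselves. In a comparison added after the data were seen, the 2 that have more, H2AC21 and H2BC21, gave 15.1% (9.57% to 23.2%) by themselves, against 25.5% (23.7% to 27.4%) for the 29 genes of the main chromosome 6 cluster with that property. From 24 h to 48 h with SAF-A siRNA the intervals of the clusters overlapped, at 15.7% (14.2% to 17.3%) for the chromosome 1 cluster and 18.2% (16.9% to 19.7%) for the main chromosome 6 cluster. H2BC18 was at 183, 204, 168 and 38.1 FPKM and H2AC21 at 176, 198, 196 and 30.3 FPKM. Within the cluster H3C13, H4C14, H4C15, H2AC18 and H2BC21 had intervals below the value of all genes, while H2AC20, at 725 and 220 FPKM (30.3%, 23.1% to 38.8%), lay above it.

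At 48 h, 8 genes had intervals above the pooled value, 5 of them in the main chromosome 6 cluster. The intervals of H3C2, H4C3, H2BC4, H2AC8 and H3C6 lay above it, that of H3C2 just so, and so did those of H2AC20, H2BC11 and H2BC12 outside this cluster. H3C2 was at 28.3% of control (22.9% to 34.6%), H4C3 at 31.7% (25.8% to 38.5%) and H2BC4 at 35.6% (26.7% to 46.4%). H2AC8 was at 268, 290, 212 and 73.1 FPKM and its divergent neighbour H2BC8 at 289, 328, 197 and 27.3 FPKM. The pair was level in the control of 48 h and apart in the SAF-A library, at 34.4% (23.5% to 48.8%) and 13.8% (5.95% to 27.3%) of control, with intervals that overlapped. H4C8, the last gene of the cluster, was at 976, 1226, 845 and 203 FPKM, and H3C1, near its start, at 50.4, 66.0, 23.9 and 6.20 FPKM.

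A few genes stand apart from the large clusters or have low levels. H2AC25 was at 39.4, 34.0, 44.3 and 23.9 FPKM, with a log2 difference of -0.86 at 48 h. Its divergent neighbour H2BC26 was at 29.5, 31.2, 29.1 and 6.63 FPKM, and rested on 2 reads in the last library. H4C9, which lies within the intron of H2BC12 in the cluster of 5 genes on chromosome 6, was at 25.1, 30.6, 22.5 and 7.41 FPKM. All 3 have counting intervals at 48 h too wide to set them apart from the other genes.

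Most tested genes of the cluster of 16 on chromosome 6 lay close together at 48 h. H1-5, H2AC13, H2AC14, H2AC15, H2AC17, H2BC13, H2BC17, H3C10, H4C11 and H4C12 lay between 16.4% and 28.2% of control. H2AC13 was at 540, 545, 518 and 85.3 FPKM, H2AC14 at 341, 343, 290 and 64.7 FPKM and H2AC17 at 269, 298, 219 and 39.7 FPKM. H2AC15, with the changed left arm of its stem-loop, was at 156, 156, 129 and 27.8 FPKM. H4C11 was at 758, 882, 669 and 188 FPKM and H4C12 at 805, 927, 708 and 169 FPKM. In each of these genes the first 3 libraries lay together and the SAF-A library of 48 h was far below them. H2AC16 was at 115, 118, 88.9 and 36.6 FPKM and H2BC15 at 128, 141, 119 and 37.7 FPKM, which is 41.1% (21.4% to 73.3%) and 31.7% (15.4% to 55.8%) of control at 48 h. The intervals of both genes held the value of all histone genes together. The other tested genes of the cluster were H3C11, at 67.1% of control from an estimated 0.5 of a read, and H2BC14, listed at 0 in the SAF-A library.

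Among the 54 genes, 4 were not 2-fold lower at 48 h. H3C6 was at 18.5, 30.0, 14.6 and 22.3 FPKM, and the last value rested on 7 reads, so its level of 152% of control had an interval of 59.8% to 325%, which held 100% but not the 22.9% of all genes. H2BC12 was at 123, 138, 114 and 78.6 FPKM, with 60.7 estimated reads in the SAF-A 48 h library, and its 68.7% of control (52.6% to 89.0%) was above that of all genes and below 100%. H2AC25 is described above. H3C11 was at 4.30, 4.45, 2.24 and 1.51 FPKM, the last from an estimated 0.5 of a read.

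H2BC12 is also the gene whose transcript was without a stem-loop. To compare the forms, the 4 transcripts that ran past the stem-loop or had none were set against the 67 that ended at it. The former summed to 163, 183, 157 and 83.7 FPKM, and the latter to 27205, 31060, 23763 and 5389 FPKM. At 48 h they were at 53.5% of control (42.0% to 68.1%) and 22.7% (21.6% to 23.9%). At 24 h the 2 forms had overlapping intervals, at 112% (108% to 118%) and 114% (113% to 115%).

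That contrast at 48 h was that of 1 gene: H2BC12 held 60.7 of the 73.4 estimated reads of such transcripts. H2BC21, the other extended transcript with reads, went the opposite way: it was at 39.0, 43.9, 39.9 and 5.16 FPKM, which is 12.9% of control (7.06% to 22.7%) at 48 h. The spliced form of H2BC5 was at 0.182, 0.663 and 2.26 FPKM in the first 3 libraries and near 0 in the last, and that of H2BC18 did not pass 0.0426 FPKM. With single-end reads of 50 bases from a kit not stated to keep the strand, reads in the shared first exon of H2BC12 cannot be assigned to a stem-loop-ended or a spliced mRNA.

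Time alone moved histone mRNA much less with control siRNA. From 24 h to 48 h, 2 of the 54 genes were at least 2-fold lower and none was 2-fold higher, where 1.36% and 1.79% of all genes tested were. The 2 were H3C1, at 50.4 and 23.9 FPKM, and H2BC3, at 4.55 and 1.62 FPKM. Small differences pointed down: 50 of 54 genes lay below 0, against 5070 of all 11631 genes tested. On the TPM scale 43 of 54 did. Summed FPKM at 48 h was 87.4% (86.8% to 88.0%) of that at 24 h. By class it was 80.4% for H2B, 84.2% for H3, 86.1% for H1, 89.8% for H4 and 90.6% for H2A.

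With SAF-A siRNA, 51 of the 54 genes were at least 2-fold lower at 48 h than at 24 h and none was 2-fold higher, where 17.8% and 15.1% of all genes tested were. Summed FPKM at 48 h was 17.5% (16.7% to 18.4%) of that at 24 h, and the 3 genes short of 2-fold were H2AC25, H2BC12 and H3C6. H3C6 was 0.41 lower on the log2 scale. This comparison shares the SAF-A 48 h library with the one above and the SAF-A 24 h library with the 24 h comparison, and all 4 comparisons draw on the same 4 libraries, so none is independent of the others.

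The genes that transcribe and process histone mRNA, which encode polyadenylated mRNAs, were read beside them. SLBP, the stem-loop binding protein, was at 62.9, 51.1, 57.6 and 56.2 FPKM, nearly level at 48 h (log2 difference -0.03). NPAT, the coactivator of histone gene transcription, was at 6.27, 6.02, 6.48 and 4.87 FPKM, and CASP8AP2 (FLASH), its partner in the histone locus body and in cleavage, at 5.86, 4.92, 5.45 and 2.44 FPKM. LSM10 and LSM11, proteins of the U7 particle, were at 7.33, 5.04, 7.31 and 3.82 FPKM and at 5.51, 4.49, 8.85 and 3.14 FPKM. All of these but SLBP had between 3 and 34 estimated reads in the SAF-A library of 48 h.

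As a list, 25 of 26 such genes were tested, and RNU7-1 was not analysed here. None was 2-fold changed at 24 h. At 48 h, 5 were 2-fold lower and 2 higher, with a median of -0.48 against -0.12 for all genes. These counts are near or under the background, since 20.1% of all genes tested were 2-fold lower and 14.2% higher. The 5 were CCNE2, LSM11, CSTF3, ZNF473 and CDK2, and the 2 were CPSF3, the endonuclease that cuts histone and other pre-mRNAs, and TUT7, a uridylyltransferase acting in histone mRNA decay. CPSF3 was at 37.3, 33.9, 35.3 and 85.9 FPKM.

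The medians of the lists on replication, chaperones and RNAs without a poly(A) tail also lay below 0 at 48 h, nearer to it than that of the histone genes. Of 26 S phase genes of DNA replication, SLBP among them, all lay below 0 at both times, against 7315 (24 h) and 6298 (48 h) of all 11631 genes tested. The 26 had a median of -0.32 at 24 h and -0.81 at 48 h, and 0 and 9 were 2-fold lower, where 1.25% and 20.1% of all genes tested were. PCNA, the sliding clamp of replication, was at 212, 174, 193 and 156 FPKM. On the TPM scale, which shifts the median of all genes from -0.06 to -0.22 at 24 h, their differences at that time are lower still. At 24 h these genes were thus on the other side of 0 from the median of the histone genes in FPKM, though not in TPM (median -0.02).

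Of 11 histone chaperones, 4 were 2-fold lower at 48 h (HIRA, CHAF1A, ASF1B and CHAF1B) and none at 24 h, with medians of -0.69 and -0.11, where 20.1% and 1.25% of all genes tested were lower. ASF1B, a chaperone of H3 and H4, was at 30.6, 26.2, 31.9 and 12.9 FPKM. Of 4 RNAs that are made without a poly(A) tail (RMRP, RPPH1, SCARNA2 and TERC; RN7SK, RN7SL1 and RNU7-1 were not analysed here), 1, TERC, was 2-fold lower at 48 h, and the median was 0.26 at 24 h and -0.57 at 48 h. That count of 1 of 4 is near the 20.1% of all genes tested.

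**Figure D5:**
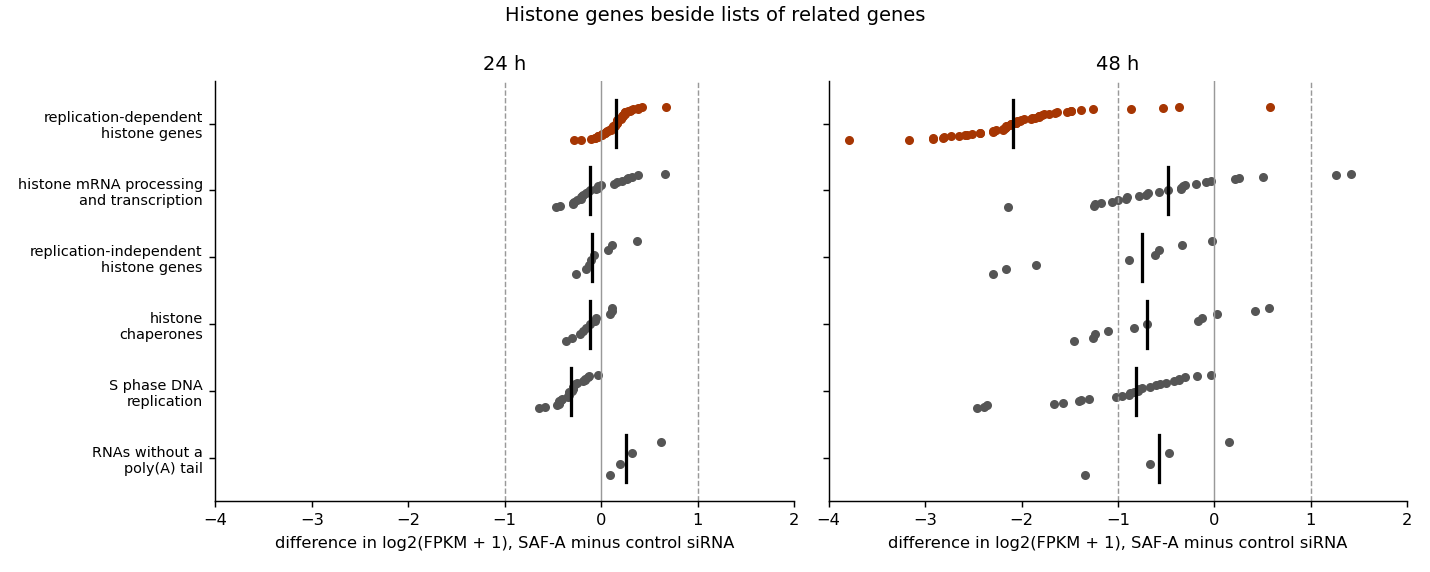
Difference in log2(FPKM + 1) between SAF-A and control siRNA at 24 h (left) and 48 h (right) for the 54 histone genes (top) and the tested genes of 5 related lists; points are genes and black bars medians. At 48 h the histone genes centre on -2.08 and the lists between -0.48 and -0.81.

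Replication-independent histone genes were compared last, since they encode the same families of protein. Of 12 such genes, 8 were tested; none was 2-fold changed at 24 h and 3 were 2-fold lower at 48 h, with a median of -0.75 against -0.12 for all genes, of which 20.1% were 2-fold lower. H3-3B, a gene of H3.3, was at 140, 130, 126 and 67.7 FPKM. H2AX, whose mRNA is known to occur with and without a poly(A) tail, was at 48.6, 43.6, 38.7 and 7.10 FPKM, a log2 difference of -2.29 at 48 h. The other 2 lower genes were H1-10 and H3-5, at -2.16 and -1.85.

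H2AX thus differed at 48 h by about as much as the median replication-dependent gene, though from few reads, and H3-3B by less. H3-3A was listed at 0.0544 FPKM or less in every library, and how the reads of its near-identical copies, H3-5 among them, were assigned is not given in the sources used here, so the values of H3-3A and H3-5 are uncertain.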

How the data were processed

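RPE1 total RNA depleted of ribosomal RNA was sequenced as 50-base single-end reads, per the labels' protocols, in 1 library per group. The deposited gene tables give FPKM with 95% intervals; per the submitters' processing notes the tools named are TopHat2 2.0.10, Bowtie2 2.1.0, Cufflinks 2.2.1 and Cuffdiff, and the build is hg19. How reads mapping to several copies were weighted is not given in the sources used here. Of the tables' identifiers, 97.1% matched a RefSeq symbol, and 82.0% of the 243946 deposited exons matched GENCODE lifted to hg19. The other deposited columns (status, coverage and transcript models) served for lengths and exons.

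FPKM was summed per symbol. Differences are in log2(FPKM + 1), over the 11631 genes that averaged 1 FPKM or more, and a gene is called higher or lower at 2-fold. Reads were estimated from FPKM, effective length and implied depth, with a fragment range of 51 to 420 nt chosen from the data: 74.9% to 80.3% of low genes then held whole reads within 0.02. Intervals on ratios, at 95%, are exact binomial on these reads for single genes and transcripts. The same holds for sums with named genes left out and for cluster sums split by unique windows. Such intervals on sums pool reads without weighting genes by FPKM and can be too narrow. Those of all other sums are normal approximations on the log ratio with Poisson variances of these reads. Clusters were split at gaps over 200 kb. Simulated tables with known changes were used to check the computations. Alternatives were other pseudocounts, filters, scalings, thresholds, subsets of unique genes and removal of a trend with GC content and length. The rule names the 4 genes of highest mean in each class, those with several transcripts, those outside the largest cluster that averaged 1 FPKM or more, and the 2 largest and 2 smallest changes at 48 h among averages of 5 FPKM or more; other genes, H3C1, H4C5, CPSF3 and the lower chaperones among them, were chosen after their values were seen. The members and gene lists were chosen with earlier results of these data known. Python 3.11.15, pandas 2.3.3, scipy 1.17.1 and matplotlib 3.10.9 were used.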

Additional observations from a re-analysis of the deposited data

Results flagged for a closer look

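The summed FPKM lay above control at 24 h and far below it at 48 h with SAF-A siRNA, in every class; each time point is 1 pair of libraries, and the difference between the times was not tested. The log2 ratio for all 67 genes was 0.19 at 24 h and -2.13 at 48 h. For H1 it was 0.03 and -2.07, for H2A 0.15 and -2.18, for H2B 0.20 and -1.86, for H3 0.14 and -2.10, and for H4 0.26 and -2.22. On the TPM scale the 24 h sums of H1, H2A and H3 were below control, at 89.8%, 97.6% and 96.9%, so for these classes the direction at 24 h turns on that scale; with the FPKM of genes of at least 300 nt as the total, H1 was below control, at 98.7%, and H2A and H3 were above it, at 107% and 107%.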

How the results depend on the processing

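With 1 library per group, no library could be left out. No paired analysis was possible because each group holds 1 library. The precision of single genes at 48 h is limited by the SAF-A library, where the tested histone genes had a median of 19.9 estimated reads, 17 of 54 had fewer than 10 and 4 had none.

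The count of genes 2-fold lower at 48 h was 50 as reported and lay between 36 (of the 40 genes with at least 80% unique windows) and 51 over the alternatives. At 24 h it was 0, and 1 with a 1.5-fold threshold (H3C6, higher). Between the control libraries it was 2, and 1 with a mean of at least 5 FPKM, 1 on the TPM scale and 4 at 1.5-fold. The log2 ratio of the summed FPKM at 24 h was 0.19, and 0.0066 on the TPM scale, 0.14 with genes of at least 300 nt as the total, 0.25 after centring on the median gene, 0.23 over the unique genes and 0.17 in estimated RPM. At 48 h it was -2.13, and -2.36 with genes of at least 300 nt as the total and -1.997 over the unique genes. Between the control libraries it was -0.19, and -0.12 on the TPM scale, -0.22 with the 300 nt total, -0.23 after centring and -0.24 over the unique genes. Between the SAF-A libraries it was -2.51, and -2.28 on the TPM scale and -2.72 with the 300 nt total. The rescalings move all genes by 1 factor per library, and the other causes were not tested. The median of all genes moved from -0.06 to -0.22 at 24 h on the TPM scale, and from -0.12 to -0.32 at 48 h with the 300 nt total. After removal of a trend with GC content and length the median of the histone genes was 0.06 at 24 h and -2.41 at 48 h.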
